A study of Mus musculus with 7 samples.

Results

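The genes described here are the chromosomal neighbours of Stk24 in the intestinal epithelium of mice in which that gene had been knocked out. Stk24 encodes MST3, a protein kinase of the STE20 family, and lies near the end of mouse chromosome 14. The members were taken by position and gene type alone: every protein-coding row on the chromosome of Stk24 with a start between 111500000 and 125200000 (GRCm39), without Stk24 itself and without Slc15a1. This gave 35 genes out of 46671 rows in the deposited table. Values are FPKM, that is, fragments per kilobase of gene length scaled to the size of the library. Levels can be compared between genes only as far as the deposited gene length matches the transcripts present. A gene entered the test if its mean over the 7 libraries reached 0.5 FPKM, which 15 of the 35 did, or 42.9%. The same share, 354 of 826, passed among the other protein-coding genes of chromosome 14, against 50.5% of all protein-coding genes.

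There were 4 libraries from mice labelled MST3 knockout (cKO), in which the gene was removed in intestinal epithelial cells. The comparison was with 3 libraries from mice labelled WT (Ctrl). All mice were BALB/C, 8 weeks old, kept free of specific pathogens, and the design text calls them littermates. It also names treatment with AOM, which starts colon tumours, and DSS, which injures the colon lining, but the treatment field of both groups states that no drug was given. The driver of the recombination, the strain in which the allele was made, the deleted part of the gene and whether Ctrl mice carry an unrecombined allele were not given in the sources used here. Separate animals are not stated for the libraries, so the p-values reflect only how far these libraries lay apart, which may be technical.

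Neighbours of a targeted gene are a common check of an engineered allele. A chromosome segment that flanks the allele can descend from the strain in which it was made, so that linked variants travel with the mutation as passengers. An insertion or deletion can also alter transcription or the ending of transcripts next to it. The 35 genes share only their place on the chromosome: they encode regulators of small GTPases, proteins of folding and secretion, metabolic enzymes, receptors, and many genes of nervous tissue and development.

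The labels were checked on the targeted gene first. Stk24 (chromosome 14, 121521599 to 121618269, minus strand) stood at 2.92, 3.04, 3.85 and 3.53 FPKM in cKO replicates 1 to 4, against 19.4, 19.4 and 21.0 FPKM in Ctrl replicates 1 to 3. Its log2 difference was -2.42 (95% interval -2.69 to -2.15, limma adjusted p = 0.00043), and no cKO library came near a Ctrl library. Each library had between 14659708 and 19659622 gene-assigned reads, and 3 reads on a gene of 1 kb correspond to between 0.155 and 0.216 FPKM. Although the samples are labelled colorectum, 8 markers listed for large bowel summed to between 134 and 257 FPKM in cKO and between 136 and 277 FPKM in Ctrl. The 7 markers for small bowel summed to between 16967 and 23279 FPKM in cKO and between 20982.5 and 23546 FPKM in Ctrl. Of the large bowel markers, Prdx6b and Hoxd13 had no read, and Car1 had none outside Ctrl replicate 1. All 7 epithelial markers were present, while the sum of 5 smooth muscle markers stayed at or below 0.279 FPKM in cKO and 0.729 FPKM in Ctrl.

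No neighbour of Stk24 passed the test, and none showed a difference near that of Stk24. Of the 15 tested neighbours, 12 had a higher and 3 a lower mean on the log2 scale in cKO, with differences between -0.21 for Ubac2 and 0.36 for Mbnl2. A higher mean in cKO was found for 6363 of all 13057 genes tested and 191 of the 354 other tested protein-coding genes of the chromosome. The 15 neighbours share the same 7 libraries, so they are not independent observations. The median difference of the neighbours was 0.084, against -0.0077 over all 13057 genes tested and 0.032 over the 354 other tested protein-coding genes of the chromosome. The count of 12 depended on single libraries, at 8 without Ctrl replicate 2 and between 10 and 11 without any 1 of the others. All values were compared as log2(FPKM + 0.5), a scale on which changes of low genes appear too small. Adjusted p-values come from limma, fitted on all genes tested.

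With limma, 0 of 15 neighbours passed an adjusted p of 0.05, where 0.0306% of all genes tested did. At an unadjusted p under 0.05 there was 1 of 15, Mbnl2, where 8.97% of all genes tested passed. cKO and Ctrl values were free of overlap for 1 of 15, Dock9, where 10.1% of all genes tested were. With voom on the recovered reads, 18 neighbours could be tested, also Abcc4, Dzip1 and Uggt2, whose mean lay below 0.5 FPKM. Of the 18, 0 passed and 2, Mbnl2 and Dock9, had an unadjusted p under 0.05, where 8.42% of all genes did. At an unadjusted p under 0.05 the limma count of 1 rests on single libraries. No neighbour had an unadjusted p under 0.05 without cKO replicate 2, 3 or 4 or without Ctrl replicate 3, and without Ctrl replicate 1 the single gene was Tmtc4 instead. Dock9 stayed free of overlap whichever library was left out, as leaving out a library cannot bring separate groups to overlap. Counted with Dock9, 2 genes were free of overlap without cKO replicate 1 or 3 or without Ctrl replicate 2 or 3. There were 3 without cKO replicate 2 or Ctrl replicate 1. Over all genes the share without overlap was then also larger, between 12.3% and 19.1%.

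A p that misses the threshold does not show equality, so the intervals matter more here than the calls. The 95% intervals of all 15 neighbours lay within 1 log2 unit of 0 in either direction, and those of 9 lay within 0.5. Among all 13057 genes tested, 11063 had intervals within 1 and 4425 within 0.5. Among the 354 other tested protein-coding genes of the chromosome, the counts were 326 and 135. Among the neighbours, the lowest bound, -0.80, and the highest, 0.97, both belonged to Gpr18, the most variable of them. The interval of Stk24, from -2.69 to -2.15, overlapped none of those of the 15 neighbours.

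**Figure D1:**
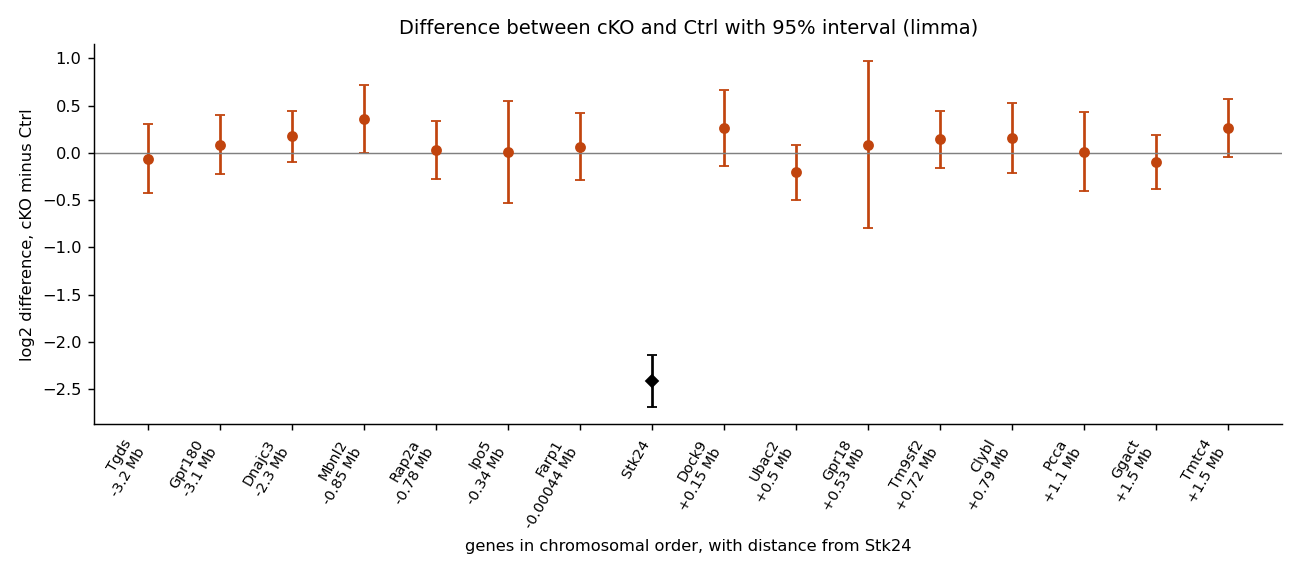
Log2 difference between cKO and Ctrl for Stk24 (black diamond) and its 15 tested neighbours (circles) in chromosomal order, with distance from Stk24 in Mb; bars are 95% intervals from limma, with 4 cKO and 3 Ctrl libraries. The neighbours lie between -0.21 and 0.36, and Stk24 at -2.42.

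The gene closest to Stk24 is Farp1, which encodes a guanine nucleotide exchange factor of small GTPases. Farp1 (121272563 to 121521156, plus strand) and Stk24 meet tail to tail, with 442 bases between their annotated ends, so that transcripts running past either end would enter the other gene. Farp1 stood at 6.88, 5.61, 4.75 and 5.08 FPKM in cKO replicates 1 to 4, against 5.59, 5.80 and 4.47 FPKM in Ctrl replicates 1 to 3. The highest value belonged to a cKO library and the lowest to a Ctrl library, and the groups overlapped between 4.75 and 5.80 FPKM. Its log2 difference came to 0.067 (95% interval -0.28 to 0.42, limma adjusted p = 0.920), and it turned to -0.030 without cKO replicate 1 and to -0.039 without Ctrl replicate 3. The strand setting of the counting is not given in the sources used here, so reads in overlapping or adjoining transcripts of opposite strands may be divided differently from what the annotation states.

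On the other side the nearest tested member is Dock9, an exchange factor for the GTPase Cdc42, 154 kb from Stk24 (121772026 to 122038465, minus strand). Between them lies the peptide transporter gene Slc15a1, with a log2 difference of 0.28 (95% interval -0.44 to 0.99, limma adjusted p = 0.814). Dock9 was the lowest tested neighbour by FPKM but not by reads, with 2087 over all libraries against 683 for Gpr18. It stood at 0.915, 1.13, 0.845 and 0.908 FPKM in cKO replicates 1 to 4, against 0.586, 0.794 and 0.741 FPKM in Ctrl replicates 1 to 3. Every cKO library lay above every Ctrl library, with a narrow gap between 0.845 FPKM in cKO replicate 3 and 0.794 FPKM in Ctrl replicate 2. These values rest on 264 to 411 reads per cKO library and 245 to 287 reads per Ctrl library, because the gene is counted over 21522 bases. A log2 difference of 0.26 was found (95% interval -0.13 to 0.66, limma adjusted p = 0.677), with an exact 2-sided permutation p of 0.0571. That p is 2 times the smaller 1-sided p, and in this form it cannot go lower with 4 against 3 libraries. The difference of Dock9 was 0.44 with voom and 0.12 once the length trend of each library was taken out, and in the second case the groups overlapped.

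Rap2a, the third of the genes linked to small GTPases, encodes a GTPase of the Rap family that in human cells has been tied to the control of YAP by matrix stiffness. It lies 777 kb from Stk24, on the side of Farp1. Rap2a stood at 5.46, 4.83, 5.79 and 5.10 FPKM in cKO replicates 1 to 4, against 4.67, 4.67 and 6.28 FPKM in Ctrl replicates 1 to 3. The 4 cKO values lay within the range of the 3 Ctrl values. Its log2 difference was 0.032 (95% interval -0.28 to 0.34, limma adjusted p = 0.959), with a sign that turned when cKO replicate 3, Ctrl replicate 1 or Ctrl replicate 2 was left out.

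On the scale of log2(FPKM + 0.5) the largest difference among the neighbours was that of Mbnl2, which encodes a muscleblind-like regulator of alternative splicing, 852 kb from Stk24 (120513077 to 120669110, plus strand). Mbnl2 stood at 22.5, 26.0, 26.7 and 25.9 FPKM in cKO replicates 1 to 4, against 16.7, 25.2 and 17.7 FPKM in Ctrl replicates 1 to 3. Ctrl replicates 1 and 3 lay below all cKO libraries, and Ctrl replicate 2 lay among them. The means were 25.3 ± 1.88 FPKM in cKO (SD, n = 4) and 19.9 ± 4.63 FPKM in Ctrl (SD, n = 3). The log2 difference of 0.36 (95% interval 0.0015 to 0.72) had an unadjusted p of 0.0493 and a limma adjusted p of 0.554, with an exact 2-sided permutation p of 0.114. By p it ranked 1159 among the 13057 genes tested. With a pseudocount of 0.1 or with voom the difference of Dock9 was larger than that of Mbnl2, at 0.38 against 0.37 and at 0.44 against 0.37. The difference of Mbnl2 stayed positive under each of 20 alternative settings, between 0.25 and 0.54, with adjusted p between 0.478 and 0.827.

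**Figure D2:**
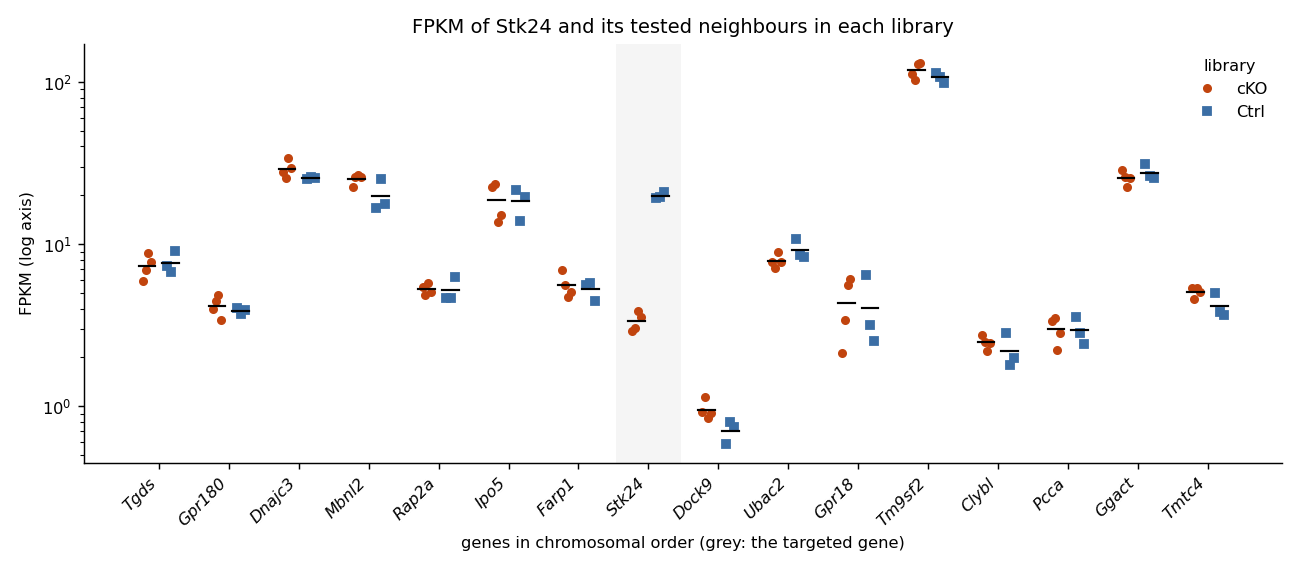
FPKM (log axis) of Stk24 (grey band) and its 15 tested neighbours in chromosomal order, 1 point per library, cKO left of Ctrl, with a bar at each group mean. Only Stk24 has groups far apart; the cKO points of Dock9 lie just above its Ctrl points, and the other neighbours overlap between groups.

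Genes of protein folding, secretion and transport formed the largest group of tested neighbours, with 5 members, of which 4 had a higher and 1 a lower mean in cKO (median log2 difference 0.14). Tm9sf2, a membrane protein of the Golgi and endosomes, was the most abundant neighbour. It stood at 112, 103, 128 and 131 FPKM in cKO replicates 1 to 4, against 114, 108 and 98.9 FPKM in Ctrl replicates 1 to 3. Replicates 3 and 4 of cKO were the highest, while replicates 1 and 2 lay among the Ctrl libraries. For this gene the log2 difference was 0.14 (95% interval -0.16 to 0.45, limma adjusted p = 0.761). With TPM or quantile normalization every cKO library of Tm9sf2 and of Dnajc3 lay above every Ctrl library, where 10.99% of all genes tested were free of overlap with TPM and 11.1% with quantile normalization.

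Dnajc3 encodes the co-chaperone P58IPK of the endoplasmic reticulum, an inhibitor of the stress kinase PERK. It stood at 27.7, 25.6, 34.0 and 29.4 FPKM in cKO replicates 1 to 4, against 25.3, 26.0 and 25.7 FPKM in Ctrl replicates 1 to 3. The Ctrl libraries differed little, with a coefficient of variation of 1.36%, and cKO replicates 1, 3 and 4 lay above all of them. This gave a log2 difference of 0.17 (95% interval -0.098 to 0.45, limma adjusted p = 0.688). Uggt2, a homologue of the glycoprotein folding sensor of the same compartment, lies tail to tail with Dnajc3 at a distance of 62 bases. Uggt2 had 57 reads in cKO and 27 reads in Ctrl and was too low for the main test.

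Tmtc4, which transfers mannose to cadherins in the endoplasmic reticulum, stood at 5.36, 4.56, 5.34 and 5.03 FPKM in cKO replicates 1 to 4. In Ctrl replicates 1 to 3 it stood at 5.001, 3.79 and 3.68 FPKM, so that Ctrl replicate 1 lay among the cKO libraries. Its log2 difference was 0.27 (95% interval -0.040 to 0.57, unadjusted p = 0.0795, limma adjusted p = 0.593), close to the 0.26 of Dock9. The unadjusted p was under 0.05 after rescaling to TPM and without Ctrl replicate 1.

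Ubac2, a membrane protein involved in degradation from the endoplasmic reticulum, was the neighbour with the lowest difference. It stood at 7.73, 7.11, 8.90 and 7.80 FPKM in cKO replicates 1 to 4, against 10.7, 8.56 and 8.35 FPKM in Ctrl replicates 1 to 3. Without cKO replicate 3, the highest cKO library, all cKO libraries lay below all Ctrl libraries, where 13.8% of all genes tested had no overlap. With all libraries the log2 difference of Ubac2 was -0.21 (95% interval -0.50 to 0.086, limma adjusted p = 0.663). The genes Gpr18 and Gpr183 lie inside Ubac2 on the opposite strand, so without a known strand setting their reads cannot be told apart from reads of Ubac2 transcripts.

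Ipo5, an importin that carries ribosomal proteins and other cargo into the nucleus, lies 336 kb from Stk24. It stood at 22.4, 23.4, 13.6 and 15.1 FPKM in cKO replicates 1 to 4, against 21.6, 13.8 and 19.6 FPKM in Ctrl replicates 1 to 3. Low and high libraries occurred in both groups, and the means were 18.6 ± 4.96 FPKM in cKO (SD, n = 4) and 18.3 ± 4.004 FPKM in Ctrl (SD, n = 3). The log2 difference was 0.0095 (95% interval -0.53 to 0.55, limma adjusted p = 0.994), so that with this spread the interval reached past 0.5 log2 units in either direction.

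Of the 4 metabolic enzymes, 2 had a higher and 2 a lower mean in cKO, with differences between -0.099 and 0.16 on the log2 scale. Ggact breaks down gamma-glutamylamines left by protein cross-linking, and it was the most abundant of them. It stood at 28.8, 25.9, 22.5 and 25.7 FPKM in cKO replicates 1 to 4, against 31.2, 26.1 and 25.4 FPKM in Ctrl replicates 1 to 3. Tgds, a sugar nucleotide dehydratase, averaged 7.37 ± 1.23 FPKM in cKO (SD, n = 4) and 7.70 ± 1.23 FPKM in Ctrl (SD, n = 3). The values of both genes overlapped widely between the groups.

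Both mitochondrial enzymes of this group were low. Pcca, the alpha subunit of propionyl-CoA carboxylase, stood at 3.37, 3.50, 2.22 and 2.81 FPKM in cKO replicates 1 to 4, against 3.58, 2.81 and 2.43 FPKM in Ctrl replicates 1 to 3. Its group means were 2.97 ± 0.588 FPKM in cKO (SD, n = 4) and 2.94 ± 0.582 FPKM in Ctrl (SD, n = 3), and the log2 difference of 0.011 had a 95% interval of -0.41 to 0.43. Clybl, a citramalyl-CoA lyase, averaged 2.48 ± 0.228 FPKM in cKO (SD, n = 4) and 2.20 ± 0.545 FPKM in Ctrl (SD, n = 3). The limma adjusted p of the 4 enzymes lay between 0.792 for Clybl and 0.990 for Pcca.

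Among the receptors and membrane proteins, Gpr180 and Gpr18 could be tested. Gpr180, a transmembrane protein 3120 kb from Stk24, averaged 4.18 ± 0.640 FPKM in cKO (SD, n = 4) and 3.89 ± 0.162 FPKM in Ctrl (SD, n = 3), with a log2 difference of 0.084 (95% interval -0.23 to 0.40, limma adjusted p = 0.884). Its upstream neighbour Tgds starts 4335 bases away in the opposite direction.

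Gpr18, a G protein-coupled receptor of lymphocytes that in mice is found on intraepithelial T cells, was the most variable neighbour. It stood at 2.13, 3.42, 5.61 and 6.05 FPKM in cKO replicates 1 to 4, against 6.40, 3.18 and 2.52 FPKM in Ctrl replicates 1 to 3. Within each group the highest library exceeded the lowest by more than the difference between the means, 4.30 ± 1.85 FPKM in cKO (SD, n = 4) and 4.03 ± 2.08 FPKM in Ctrl (SD, n = 3). The log2 difference was 0.086 (95% interval -0.80 to 0.97, limma adjusted p = 0.963), and its sign turned under 6 of 20 alternative settings.

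Markers of T cells and innate lymphoid cells (ILC) varied in much the same libraries. The 10 listed markers summed to 300, 364, 587 and 738 FPKM in cKO replicates 1 to 4, against 1150, 478 and 528 FPKM in Ctrl replicates 1 to 3. Libraries with the lowest and highest sums, cKO replicate 1 and Ctrl replicate 1, were also those with the lowest and highest Gpr18. Gzma contributed most to the sums, at 182 FPKM in cKO replicate 1 and 696 FPKM in Ctrl replicate 1. None of the 10 markers was at 0 throughout. Cd2, too low to test, went the other way, between 0.0984 and 0.816 FPKM in cKO and between 0.0521 and 0.180 FPKM in Ctrl. Of the 9 markers that could be tested, 9 had a lower mean in cKO. That count rests on Ctrl replicate 1: without it 4 of the 9, Cd3e, Cd8a, Trac and Ptprc, had a higher mean in cKO, and the marker sums averaged 497 FPKM in cKO and 503 FPKM in Ctrl. The part of these cells in the level of Gpr18 was not tested, and in such bulk samples fewer cells of a type and less RNA per cell cannot be told apart. Ubac2, within which Gpr18 lies, also had its highest value, 10.7 FPKM, in Ctrl replicate 1.

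**Figure D3:**
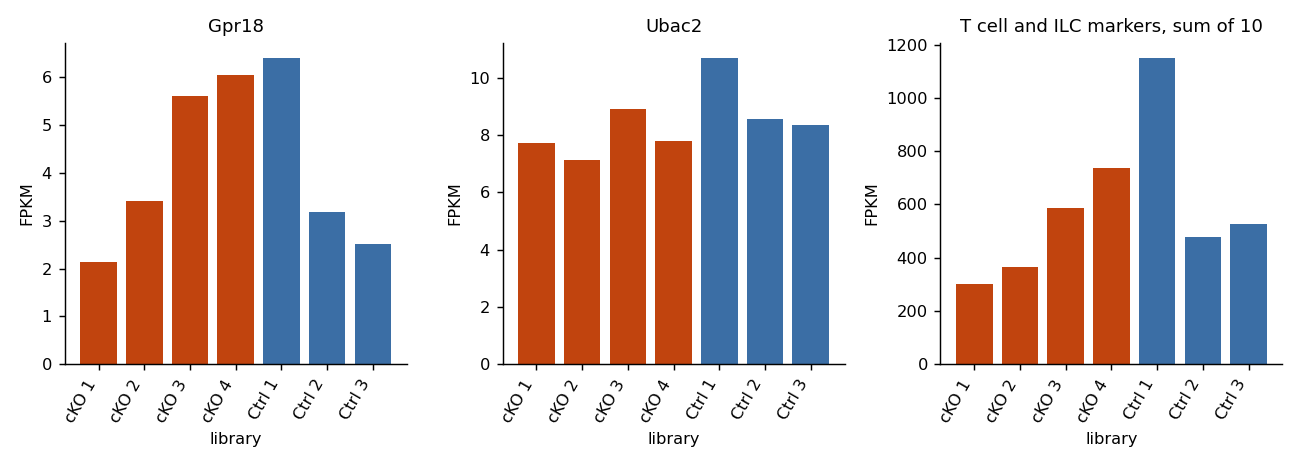
FPKM per library of Gpr18, of its host gene Ubac2 and of 10 T cell and ILC markers summed, with cKO libraries left of Ctrl libraries. Gpr18 runs between 2.13 and 6.05 FPKM in cKO and between 2.52 and 6.40 FPKM in Ctrl, and its lowest and highest libraries are those of the marker sum.

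The other 20 neighbours lay below the level required for testing, 8 of them within 2 Mb of Stk24. No read was assigned to 5 of them in any library: the synaptic adhesion gene Slitrk5, the glypican gene Gpc6, the heparan sulfate sulfotransferase gene Hs6st3, the oxoglutarate receptor gene Oxgr1 and the predicted gene Gm9376. For Hs6st3 and Oxgr1, which lie within 2 Mb of Stk24, a count of 0 over the 7 libraries together allows up to 3 reads, or 0.0029 FPKM and 0.0070 FPKM. A further 8 had between 1 and 8 reads over all libraries. They were the glypican gene Gpc5, the transcription factor genes Sox21, Zic2 and Zic5, the sodium leak channel gene Nalcn, and Itgbl1, Timm8a2 and Gm46487. These genes are best known from development and nervous tissue in the case of Zic2, Zic5, Sox21, Nalcn and Slitrk5, and 7 markers of enteric neurons and glia summed to at most 0.881 FPKM in cKO and 1.22 FPKM in Ctrl.

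The remaining 7 neighbours below 0.5 FPKM had more than 10 reads, and Abcc4, Dzip1 and Uggt2 among them were also tested with voom. Abcc4, an efflux pump for cyclic nucleotides and drugs, was the highest of them, at 0.437, 0.480, 0.181 and 0.212 FPKM in cKO replicates 1 to 4, against 0.282, 0.235 and 0.277 FPKM in Ctrl replicates 1 to 3. Here cKO replicates 1 and 2 lay above and cKO replicates 3 and 4 below all Ctrl libraries (exact 2-sided permutation p = 0.571). Gpr183, an oxysterol receptor that guides immune cells, had 16 reads in cKO and 9 reads in Ctrl. The cilium gene Dzip1 had 55 reads in cKO and 48 reads in Ctrl, and the claudin gene Cldn10 had 6 reads in cKO and 10 reads in Ctrl. Fgf14, whose product binds voltage-gated sodium channels, had 36 reads in cKO and 10 reads in Ctrl (exact 2-sided permutation p = 0.229), with 15 and 14 of them in cKO replicates 1 and 2. Dct, an enzyme of melanin synthesis, had 24 reads in cKO and 10 reads in Ctrl. In the form used, 2 times the smaller 1-sided p, the exact test could not pass for any of the 20 genes. Its smallest p with 4 against 3 libraries, 0.0571, lies above the threshold.

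Distance from Stk24 did not order the differences. Over the 15 tested neighbours, which share the same 7 libraries, the Spearman correlation was 0.043 between the log2 difference and the distance, and 0.036 between its absolute size and the distance. The 12 neighbours within 2 Mb had a median log2 difference of 0.077 and a median absolute difference of 0.12, and the 3 between 2 and 5 Mb had 0.084 and 0.084. None of the tested neighbours lay beyond 5 Mb, since Slitrk5, the 1 member there, had no reads. Absolute differences had a median of 0.17 over the 354 other tested protein-coding genes of the chromosome and 0.16 over all genes tested. No tested neighbour differed by more than 0.5 log2 units, where 4.52% of those 354 genes and 7.32% of all genes tested did. On the side of lower coordinates, 6 of 7 tested neighbours had a higher mean in cKO, and on the side of higher coordinates 6 of 8, where 191 of those 354 genes did.

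The median of the neighbours in each library also overlapped between the groups. Relative to the Ctrl mean, the median of the 15 genes was 0.11, 0.088, 0.16 and 0.029 on the log2 scale in cKO replicates 1 to 4, against 0.096, -0.072 and -0.11 in Ctrl replicates 1 to 3. Ctrl replicate 1 lay among the cKO libraries. For the 354 other genes of the chromosome these medians lay between 0.021 and 0.054 in cKO and between -0.0065 and 0.030 in Ctrl.

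**Figure D4:**
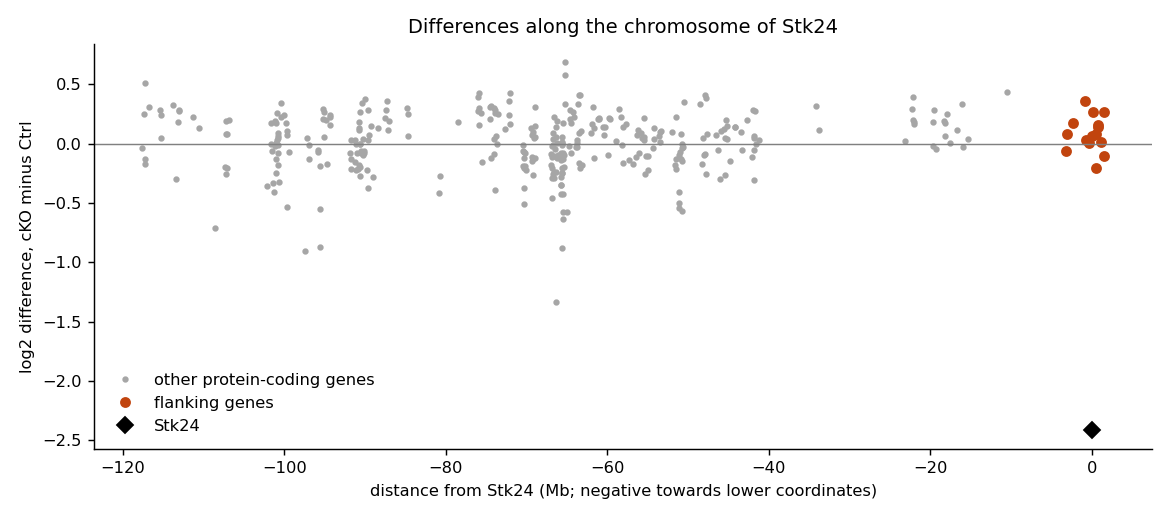
Log2 difference between cKO and Ctrl for the 15 tested flanking genes, Stk24 and the other 354 tested protein-coding genes of chromosome 14 (Slc15a1 is not drawn), against distance from Stk24 in Mb. The flanking genes lie between -0.21 and 0.36, inside the range of -1.33 to 0.69 of the other genes, and Stk24 at -2.42.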

How the data were processed

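RNA sequencing of 7 libraries was deposited as 1 FPKM value per gene and library. Per the submitters' processing notes, HISAT2 was used; its version, the counting program, the strand setting and the annotation were not given in the sources used here. Gene length and positions, the other columns used, are as deposited by the authors, and the sequence names are those of GRCm39. FPKM times gene length was a whole number of steps per library, within 0.01, for 100% of the deposited values, so reads were recovered (14659708 to 19659622 per library). The library sizes implied by the authors' FPKM were 0.891 to 1.10 times these totals. No label names a batch.

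Genes whose mean over the libraries reached 0.5 FPKM were compared as log2(FPKM + 0.5) with limma 3.58.1 (lmFit, eBayes with trend) in R 4.3.3, 2-sided, Benjamini-Hochberg adjusted over 13057 genes, threshold 0.05. Exact permutation tests used the 35 assignments of libraries to groups, with 2 times the smaller 1-sided p as the 2-sided p. The fit was tested on simulated data. Members and lists were chosen with earlier results of these data known. Named were the 6 tested members nearest to Stk24 on each side, the 5 with the smallest p in each direction, the 5 most abundant, those without overlap, and untested members within 2 Mb; other untested members are given by reads. Distance is the gap between gene ends. Alternatives covered pseudocount, filter, scaling, length trend, variance, replicate block and leaving out libraries; FPKM per recovered read and voom were added after seeing the data. Counting intervals and floors cover counting error only.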

Additional observations from a re-analysis of the deposited data

Results flagged for a closer look

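The cKO values of 36 genes or marker sums were examined for a library far from the others: 15 tested neighbours, 6 tested non-coding rows of the same window, 7 untested neighbours with more than 10 reads, 5 marker sums, and Stk24, Slc15a1 and Tpm3. In 3 of them cKO replicate 4 stood apart, where chance alone picks about 1 in 20, or 1.8 of 36, and Tpm3-rs7 and Tpm3, 2 of the 3, mirror each other. The first is Tpm3-rs7, a pseudogene related to Tpm3, 7.97 Mb from Stk24 and outside the protein-coding members. Tpm3-rs7 stood at 71.0, 64.9, 68.6 and 16.8 FPKM in cKO replicates 1 to 4, against 16.1, 70.4 and 60.8 FPKM in Ctrl replicates 1 to 3. In cKO the gap below the other 3 libraries made up 0.887 of the range, above the 95% critical value for 4 samples. The 2 low libraries, cKO replicate 4 and Ctrl replicate 1, belong to different genotypes. Tpm3, the tropomyosin gene of similar sequence, stood at 32.8, 31.0, 32.2 and 55.5 FPKM in cKO replicates 1 to 4, against 52.5, 31.4 and 29.4 FPKM in Ctrl replicates 1 to 3, so it was high in the same 2 libraries, and its gap in cKO made up 0.925 of the range. The sources used here do not give how reads were divided between these similar sequences.

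The sum of the 7 small bowel markers stood at 16967, 17403, 17450.3 and 23279 FPKM in cKO replicates 1 to 4, against 21005, 20982.5 and 23546 FPKM in Ctrl replicates 1 to 3. The gap of cKO replicate 4 above the other cKO libraries made up 0.923 of the range, and its value lay within the Ctrl range. The 7 markers did not move together. Among the cKO libraries, replicate 4 had the highest Fabp2 (9405 FPKM), Rbp2 and Sis and the lowest Lyz1 (1008 FPKM). Its Fabp6, Lct and Apoa4 lay between those of the other cKO libraries. Without cKO replicate 4 the median log2 difference of the tested neighbours was 0.095 and in limma 0 of them had an unadjusted p under 0.05.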

How the results depend on the processing

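The medians over the tested neighbours moved by less than the spread between libraries under all 20 alternatives, between 0.030 and 0.16 for all of them and between 0.021 and 0.17 within 2 Mb, and under none of these did a neighbour pass an adjusted p of 0.05. Neighbours at an unadjusted p under 0.05, 1 as reported, numbered 2 with TPM, quantile normalization and voom (9.27%, 9.96% and 8.42% of all genes), 0 after shifting to a common median of genes of other chromosomes, removal of the length trend, array weights and the replicate block (9.03%, 7.73%, 13.0% and 8.06% of all genes), and between 0 and 1 when 1 library was left out (6.07% to 10.2%). Neighbours without overlap, 1 as reported, numbered 3 with TPM and quantile normalization (10.99% and 11.1% of all genes), 2 per recovered read (9.08%), 0 with a mean of at least 1 FPKM (which leaves out Dock9; 10.96%) and after removal of the length trend (8.95%), and between 1 and 3 when 1 library was left out; the causes were not tested. Differences close to 0 turned their sign. Leaving out 1 library gave log2 differences between -0.15 and 0.056 for Tgds, -0.033 and 0.16 for Rap2a, -0.17 and 0.14 for Ipo5, -0.039 and 0.13 for Farp1, -0.16 and 0.44 for Gpr18, and -0.098 and 0.14 for Pcca. The sign also turned for Tgds with TPM (0.020) and, after removal of the length trend, for Ipo5 (-0.034), Pcca (-0.065) and Ggact (0.0062). For Gpr18 it turned with array weights (-0.14) and the replicate block (-0.094), the latter equal to leaving out cKO replicate 4. Deviations of same-numbered libraries from their group means had correlations of 0.115, -0.087 and -0.13. These replicate numbers are those of the sample titles. In the deposited column names no number occurs in both groups, so no label states a pairing. With so few libraries the correlations cannot settle it either, and the block checks an assumed pairing only. With the replicate number as a block the difference of Stk24 was -2.45 with a limma adjusted p of 0.137, and the median over the neighbours was 0.095. No Ctrl library shares the number of cKO replicate 4, so the block gave the same differences as leaving that library out. The block fits more terms to the same libraries. Without cKO replicate 4 and without a block, the limma adjusted p of Stk24 was 0.0045. The 20 untested neighbours had between 0 and 323 reads over the 7 libraries, and the spread between libraries limits Gpr18 and Ipo5.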

Other observations

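The same window holds 102 rows of other gene types, of which 64 are long non-coding RNAs, and 6 of these rows reached the level for testing. They were looked at with the results of the coding genes known. In limma 0 of the 6 passed an adjusted p of 0.05 and 1 had an unadjusted p under 0.05, where 8.97% of all genes tested did, and with voom 0 of 7 passed and the same 1 had an unadjusted p under 0.05. That row, 1810041H14Rik, starts inside the first part of Ubac2 and runs in the opposite direction. It stood at 0.589, 1.16, 0.991 and 0.188 FPKM in cKO replicates 1 to 4, against 1.42, 1.48 and 3.07 FPKM in Ctrl replicates 1 to 3, and all cKO libraries lay below all Ctrl libraries, where 10.1% of all genes tested were free of overlap. The log2 difference was -1.03 (95% interval -1.85 to -0.21, limma adjusted p = 0.516), on 36 reads in cKO and 78 reads in Ctrl. Its reads and those of Ubac2 cannot be told apart where they overlap, without a known strand setting.

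The non-coding row nearest to Stk24, B930095G15Rik, lies within Farp1 on the same strand. It averaged 2.38 ± 0.238 FPKM in cKO (SD, n = 4) and 2.38 ± 0.457 FPKM in Ctrl (SD, n = 3), with a 95% interval of -0.34 to 0.36 for the log2 difference. Mir17hg, the host transcript of a cluster of microRNAs known from cell growth and cancer, lies 6.24 Mb from Stk24. It stood at 2.69, 3.27, 3.83 and 1.29 FPKM in cKO replicates 1 to 4, against 1.54, 3.41 and 2.06 FPKM in Ctrl replicates 1 to 3. Its lowest value belonged to cKO and its values overlapped between the groups (limma adjusted p = 0.899).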
